A study of Mus musculus with 13 samples.

Results

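The genes described here are the mouse histone genes together with Slbp, which encodes the stem-loop binding protein. They were taken as the array rows annotated with a single gene symbol that is Slbp or a histone symbol of the H1f, H2a, H2b, H3 or H4 series. The rule gave 25 genes of the 14939 rows with a single symbol, and each of the 25 has 1 row. By class they are Slbp, 12 replication-dependent histones, 5 variant histones and 7 histones of germ cells. A further 20 rows carry several symbols with at least 1 histone among them, and they are described apart. Most of them join near-identical histone copies that share probes. A few join a histone to a gene of another kind, such as Trim17 with H2aw, Zfyve1 with H2az1 and Xk with H2al1 genes.

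The study set induced pluripotent stem (iPS) clones, which are somatic cells reset to a pluripotent state, against embryonic stem (ES) cells and mouse embryonic fibroblasts (MEF). RNA of 13 samples was hybridised to Affymetrix Mouse Exon 1.0 ST arrays, and the deposited values are log2 signal. The iPS clones 1, 2, 5 and 6, the MEF and the MPSVII ES cells have 2 arrays each, and the B6 Blu ES cells have 1. The clones were made from MEF with a lentivirus for the OSK factors (Oct4, Sox2 and Klf4), and each is 1 picked colony grown on a layer of feeder fibroblasts. The strain given is C57Bl/6 for the clones, the MEF and the MPSVII ES cells, and C57BL/6NTac for the B6 Blu ES cells. MPSVII stands for mucopolysaccharidosis type VII, a lysosomal storage disease. The titles and the design text name cells of the MPSVII model, whereas the fields on source and growth name wildtype B6 embryos for clones and MEF alike, so whether clones and MEF carry the MPSVII mutation cannot be told from the labels. The labels do not say whether the arrays of a line came from separate cultures, so p-values measure the spread between these arrays, which may be technical.

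Replication-dependent histone genes supply the bulk of new histones while DNA is copied. Their mRNAs end in a conserved stem-loop in place of a poly(A) tail, and SLBP binds that stem-loop to direct the processing, export and translation of the message. Variant histones such as H2A.Z and H3.3 come mostly from polyadenylated mRNAs made throughout the cell cycle and are placed by dedicated chaperones. Pluripotent stem cells are known for a short G1 phase, so a large share of their cycle is spent in S phase. The amplification kit was NuGen WT-Ovation Pico, and how evenly it copies RNAs without a poly(A) tail was not tested.

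Differences were tested with limma on all 16661 rows that were not array controls, and a row was called at a Benjamini-Hochberg adjusted p under 0.05. Values after ± are standard errors of the limma model. They rest on the spread between arrays of the same line and leave out the spread between clones. The 2 arrays of MEF stood apart in composition: the mean signal of 8 macrophage markers was 8.35 to 8.76 there and 3.90 to 4.34 in the clones, and that of 7 fibroblast markers was 8.56 to 8.97 against 4.62 to 5.86. Clone 2 had a lower mean of 6 pluripotency markers, 7.90 to 7.99, than the other clones, at 8.45 to 8.93, and the narrowest spread of values, with interquartile ranges of 1.70 and 1.88 against 1.95 to 2.83 on the other arrays. The B6 Blu ES array carried fibroblast markers at 6.55, against 4.60 to 4.67 in MPSVII ES. A lower signal can reflect fewer cells that use a gene or less RNA per cell, and bulk samples do not tell these apart.

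The promoters of Slbp and of 4 replication-dependent histones that carry the results below are shown first, because replication-dependent histone promoters are known for a few short shared motifs. Each is the 150 bases before the RefSeq start of the gene, 5′ to 3′ on the strand of the gene, in the assembly GRCm38.p6. Capitals mark the motif CCAAT, the motif TATAAA and the octamer ATTTGCAT, each in either orientation. The stretches lie at chr5:33652575-33652724 on the minus strand for Slbp, chr11:58948761-58948910 on the plus strand for H2bu2, chr11:58954535-58954684 on the plus strand for H2aw, chr13:23683960-23684109 on the minus strand for H2ac6 and chr13:21780626-21780775 on the minus strand for H1f5.
Slbp: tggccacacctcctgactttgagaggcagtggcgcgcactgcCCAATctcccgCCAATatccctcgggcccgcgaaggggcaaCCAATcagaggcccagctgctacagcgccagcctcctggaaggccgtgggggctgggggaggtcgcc
H2bu2: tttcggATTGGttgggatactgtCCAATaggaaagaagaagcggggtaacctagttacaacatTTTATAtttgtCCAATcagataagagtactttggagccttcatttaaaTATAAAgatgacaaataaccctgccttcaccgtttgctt
H2aw: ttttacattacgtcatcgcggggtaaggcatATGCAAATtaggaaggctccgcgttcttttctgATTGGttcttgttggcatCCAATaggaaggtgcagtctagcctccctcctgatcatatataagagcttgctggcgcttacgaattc
H2ac6: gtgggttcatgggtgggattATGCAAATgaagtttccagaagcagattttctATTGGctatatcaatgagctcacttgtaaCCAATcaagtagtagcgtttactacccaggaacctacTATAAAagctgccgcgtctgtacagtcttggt
H1f5: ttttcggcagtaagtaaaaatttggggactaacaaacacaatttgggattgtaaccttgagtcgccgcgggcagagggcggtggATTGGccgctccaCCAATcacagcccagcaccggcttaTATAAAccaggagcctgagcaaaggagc

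A promoter of 300 bases (250 before and 50 after the start) was found for 22 of the 25 genes. CCAAT, in either orientation, occurred in 10 of the 10 replication-dependent promoters, in 3 of 4 variant promoters and in 37.9% of the 27025 promoters of all genes. TATAAA occurred in 7 of the 10 replication-dependent promoters and 0 of the 4 variant promoters, against 14.2% of all promoters. The octamer, a site read by Oct-family factors, occurred in 4 of the 10 replication-dependent promoters and 0 of the 4 variant promoters, against 1.75% of all. Of the 7 promoters of germ cell histones, 5 held CCAAT, 2 held TATAAA and 2 held the octamer. The latter 2 motifs were in each case those of H2ac1 and H2bc1. The windows of these genes largely overlap on opposite strands, so 1 stretch of sequence was counted for both. The Slbp stretch holds CCAAT at 3 positions, beginning 108, 97 and 67 bases before the start, and neither of the other motifs. In the H2bu2 stretch a TATAAA begins 39 bases before the start, and in H2ac6 and H1f5 one begins 32 and 28 bases before it. A match of letters in these windows describes the sequence and shows no binding.

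Slbp was low in clone 2 and at a similar level on every other array. Its log2 signal was 1.68 and 3.95 in clone 2, 6.95 and 7.31 in clone 1, 7.01 and 7.30 in clone 5, and 7.32 and 6.53 in clone 6. It was 6.37 and 6.49 in MEF, 7.13 and 6.39 in MPSVII ES and 6.72 in B6 Blu ES. Both clone 2 arrays thus lay below all 11 others, which spanned 6.37 to 7.32, although the 2 clone 2 arrays differed from each other by more than that whole span. On the scale of each array, Slbp stood at the 2.41 and 49.4 percentiles of rows in clone 2 and between the 78.5 and 93.3 percentiles elsewhere.

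The difference of clone 2 from the mean of the other clones was -4.25 ± 0.47, a 19.1-fold lower signal (limma, adjusted p = 0.000891, 95% interval -5.30 to -3.21). Both clone 2 values lie below 4.20, the median of the row means, so the size of that fold is uncertain. All 12 repeats that omitted an array called it, with values from -5.39 to -3.12. Over the 4 clones the line means spanned 4.34 log2 units (limma moderated F test, adjusted p = 0.00454). Without clone 2 the span over the other 3 clones was 0.22 (adjusted p = 0.938). The remaining comparisons of Slbp were not called. The clones minus MEF gave -0.42 ± 0.46 (limma, adjusted p = 0.548) and the clones minus MPSVII ES -0.75 ± 0.46 (adjusted p = 0.585), and without clone 2 these became 0.64 and 0.31. MPSVII ES minus MEF gave 0.33 ± 0.58 and MPSVII ES minus B6 Blu ES 0.03 ± 0.71, where the 1 array of B6 Blu ES was taken to vary like those of other lines.

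**Figure D1:**
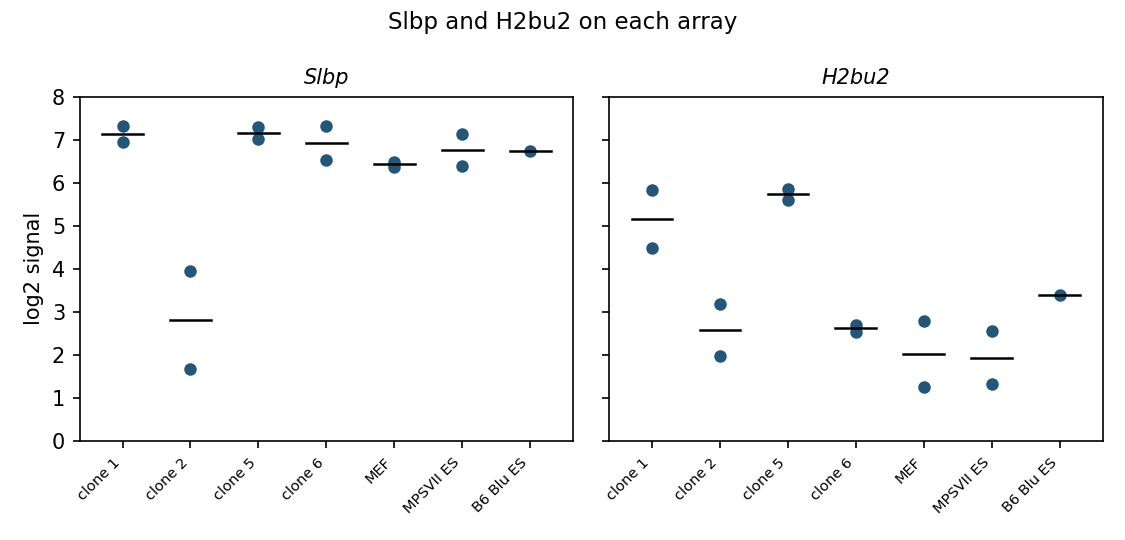
Log2 signal of Slbp and H2bu2 on each array (points) with the mean of each line (bars), by line. Slbp is at 1.68 and 3.95 in clone 2 and between 6.37 and 7.32 elsewhere, and H2bu2 is highest in clones 1 and 5.

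H2bu2, a replication-dependent H2B gene that stands outside the large histone cluster, differed among the clones in another order. Its log2 signal was 5.82 and 4.49 in clone 1 and 5.86 and 5.59 in clone 5. It was 3.18 and 1.96 in clone 2 and 2.54 and 2.70 in clone 6. MEF gave 1.25 and 2.79, MPSVII ES 2.56 and 1.32, and B6 Blu ES 3.40. Every array of clones 1 and 5 lay above every other array, whereas clones 2 and 6 overlapped MEF and MPSVII ES. Outside clones 1 and 5 the values lay below 4.20, the median of the row means, so they are low on the array.

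The H2bu2 means of the clones spanned 3.16 log2 units (limma moderated F test, adjusted p = 0.0138), and without clone 2 the span was 3.11 and not called (adjusted p = 0.071). Clone 2 was 1.93 lower than the mean of the other clones, a log2 difference of -1.93 ± 0.50 (limma, adjusted p = 0.0304), but its arrays overlapped those of clone 6. That call was lost in 3 of 12 repeats that omitted an array, at -1.32 without clone 2 array 2, -1.88 without clone 5 array 1 and -1.90 without clone 6 array 2. Clone 5 minus the other clones was 2.28 (limma, adjusted p = 0.0874), clone 1 was 1.51 (adjusted p = 0.172) and clone 6 was -1.86 (adjusted p = 0.135), none of them called. Against MEF the mean of the clones was higher by 2.00 ± 0.48 (limma, adjusted p = 0.00708), which fell to 1.23 and was not called without MEF array 1. Against MPSVII ES it was higher by 2.08 ± 0.48 and not called (limma, adjusted p = 0.0775), and MPSVII ES minus MEF was -0.08. The line means were 5.15 in clone 1, 2.57 in clone 2, 5.73 in clone 5 and 2.62 in clone 6. MEF had 2.02 and MPSVII ES 1.94. The differences of the clone mean from MEF and MPSVII ES thus came mainly from clones 1 and 5. The low Slbp of clone 2 and the low H2bu2 of clones 2 and 6 therefore did not share an order over the lines: clone 6 had Slbp at 7.32 and 6.53 with H2bu2 at 2.54 and 2.70.

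The genes beside Slbp and H2bu2 on their chromosomes were compared in the same way. Of the 5 measured genes on each side of Slbp, Tacc3, which encodes a protein of the mitotic spindle, was called in clone 2, with a log2 difference of -0.71 (limma, adjusted p = 0.0172), and the other 9 were not called. Of the 5 on each side of H2bu2, none was called in clone 2. Among the clones Zfp39 was called there, with a span of 0.88 (limma moderated F test, adjusted p = 0.0334). H2aw, the H2A gene 2 genes away from H2bu2, had a span of 0.53 and was not called (adjusted p = 0.552). Over all rows 11.5% were called in clone 2 and 9.01% among the clones. Single calls in windows of this size are thus near the share of all rows.

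**Figure D2:**
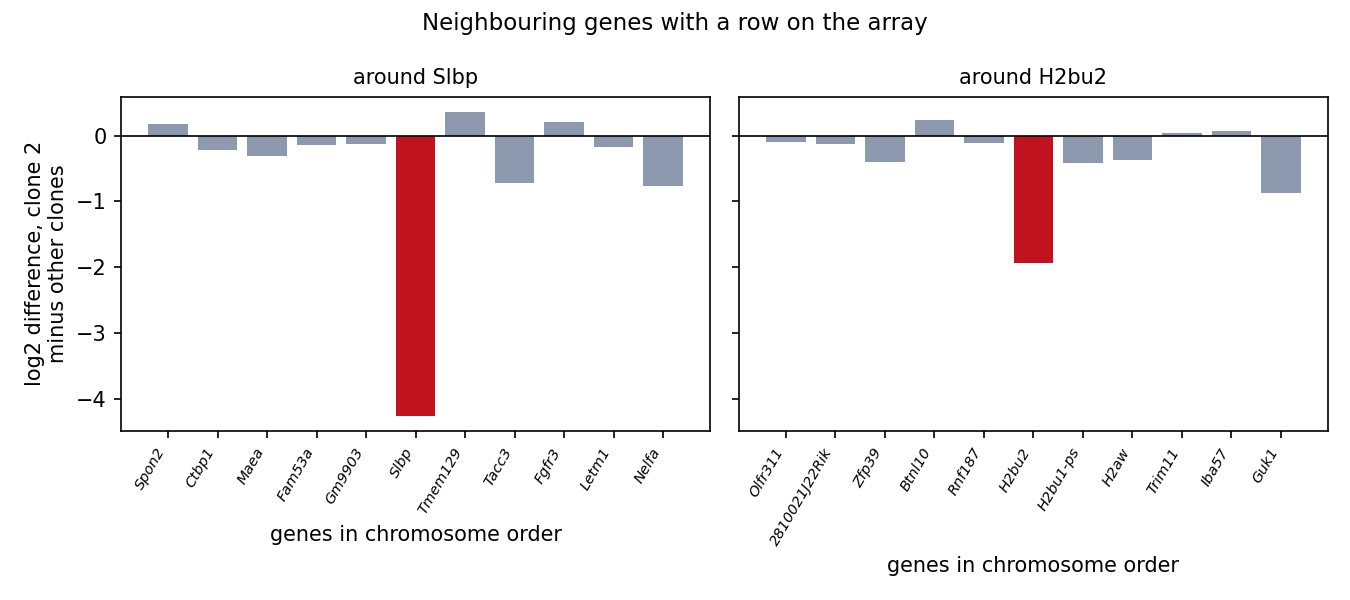
Log2 difference of clone 2 from the other clones for Slbp and H2bu2 and the 5 measured genes on each side, in chromosome order (horizontal axis, gene order). Slbp at -4.25 and H2bu2 at -1.93 are the largest differences in their windows, and Tacc3 at -0.71 is the remaining gene called.

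Across the whole set, clone 2 differed from the other clones at 4 of the 25 genes, all lower: Slbp, H2bu2, H2bc22 and H2ac1. Over all rows 11.5% were called in this comparison, 10.7% lower and 0.87% higher, so the number of lower genes stands a little above that share, on a small count. Of the 12 replication-dependent histones 2 were called, their median difference was -0.19 and the median of all rows was -0.06. Of the 5 variants 0 were called by limma, with 1 at an unadjusted p under 0.05, a threshold at which all rows were not counted. The split of calls depended on the scaling, over all rows as well as in the set. Over all rows 145 were higher and 1778 lower as deposited. These became 602 and 910 after quantile normalization, 426 and 552 after cyclic loess, and 223 and 2019 after median centring. In the set, quantile or cyclic loess normalization gave 2 of the 25 genes lower (Slbp and H2bu2) and 2 higher (H1f5 and H2al2a). After median centring 3 genes of the set were lower and 1 higher. The count fell to 2 without clone 5 array 1 or clone 6 array 2.

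H2bc22, a replication-dependent H2B gene, gave 2.95 and 3.44 in clone 2 and 3.75 to 4.55 in the other clones, without overlap. Its difference was -0.80 ± 0.22 (limma, adjusted p = 0.0407), and the call was lost in 7 of 12 repeats that omitted an array, those without either array of clone 2, 5 or 6 and that without clone 1 array 2, with values from -1.04 to -0.56. Of 10 other alternatives for H2bc22, such as other scalings and array weights, 2 kept the call, with values from -0.84 to -0.76 over the 10. H2ac1, a testis H2A gene named after its values were seen, gave 4.10 and 4.79 in clone 2 and 5.29 to 5.96 in the other clones. Its difference was -1.17 ± 0.27 (limma, adjusted p = 0.0184), and without clone 2 array 1 it was -0.82 and not called. The mean signal of the pluripotency markers moved the same way in clone 2, and its part in these differences was not tested.

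The set was then compared in the other ways that the pluripotent lines allow. The clones minus MPSVII ES gave 0 of 25 by limma, against 1.04% of all rows, with 4 genes at an unadjusted p under 0.05. MPSVII ES minus B6 Blu ES gave 0 of 25 against 0.204%, with 2 at an unadjusted p under 0.05. Clone 1 minus the other clones gave 0 against 0.582% and 7 unadjusted, clone 5 gave 0 against 0.366% and 5 unadjusted, and clone 6 gave 0 against 1.18% and 2 unadjusted. Among the 4 clones 2 of 25 were called, Slbp and H2bu2, against 9.01% of all rows, which is about the share of all rows. Without clone 2, H2bu2 in the clones minus MPSVII ES rose to 2.56 and 2 of the 25 genes were called. Shares this low over all rows leave few calls to be made in 25 genes. The share of all rows at an unadjusted p under 0.05 was not counted, so the unadjusted counts cannot be set against it.

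**Figure D3:**
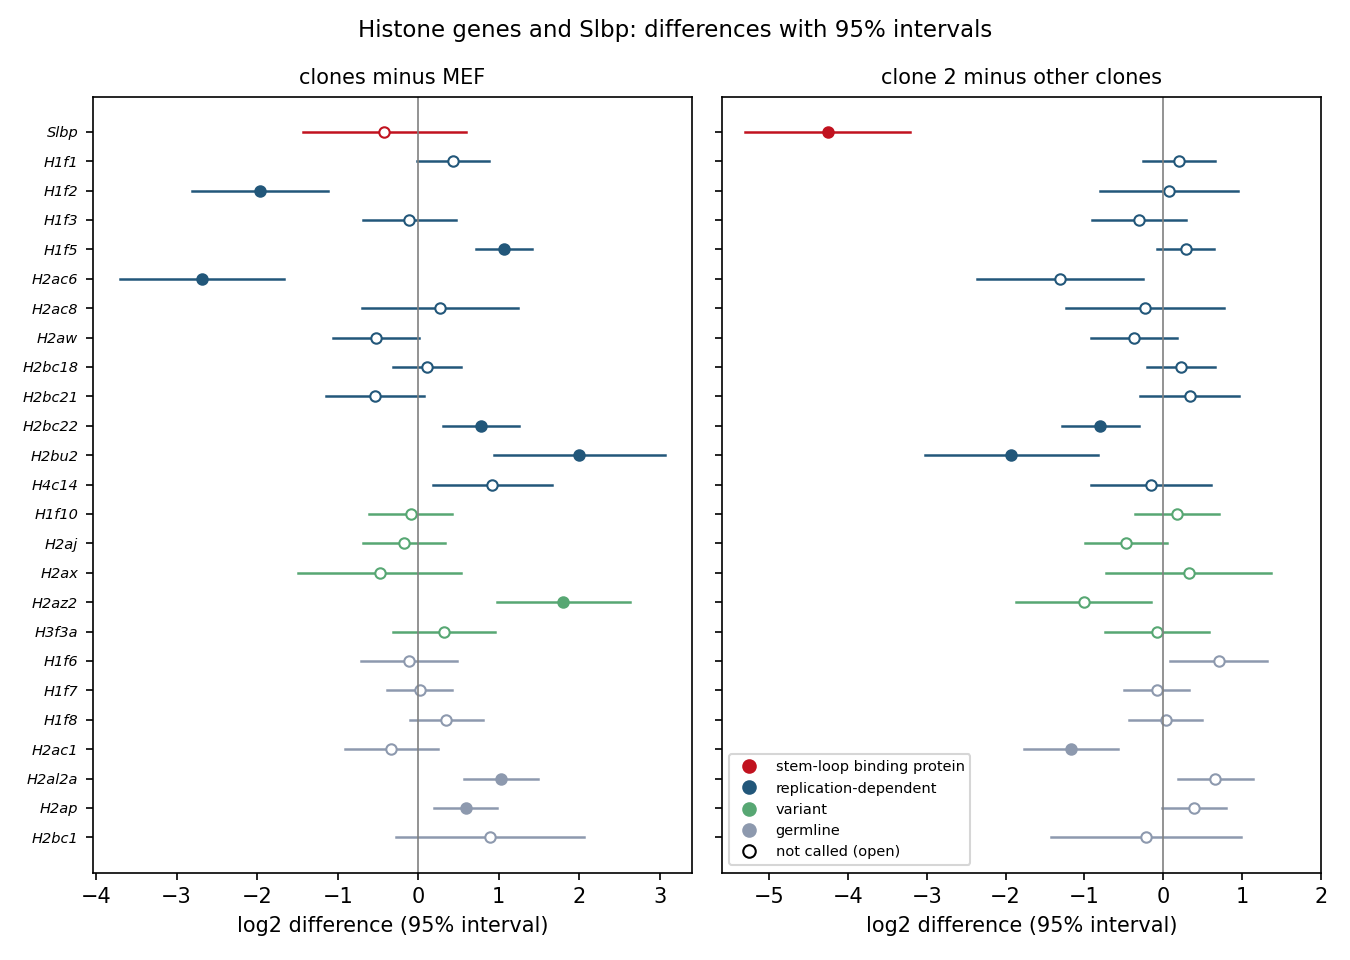
Log2 differences (points) with 95% intervals (lines) for the 25 genes, for the clones minus MEF (left) and clone 2 minus the other clones (right), with filled points for called genes. On the left H2ac6 at -2.69 and H1f2 at -1.97 lie lowest and H2bu2 at 2.00 highest, and on the right Slbp at -4.25 stands apart.

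Between the clones and MEF 8 of the 25 genes were called, 6 higher in the clones and 2 lower, with a median difference over the set of 0.11. Over all rows 34.8% were called, 7.78% higher and 27% lower, with a median of -0.09. The total is thus close to the share of all rows, and the higher genes are more frequent than in all rows. The counts in the set and over all rows depended on scale. Quantile normalization, median centring and cyclic loess moved the median of all rows to 0.11, 0.17 and 0.06. They raised the higher calls over all rows from 1297 to between 2824 and 3472, with 9 genes of the set higher and 2 lower under each. Without MEF array 1 the count was 5. By class 5 of 12 replication-dependent histones were called, 3 higher and 2 lower, with 1 of 5 variants and 2 of 7 germ cell histones.

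The largest change of a replication-dependent histone was that of H2ac6, a core H2A gene. Its log2 signal was 6.82 and 6.49 in MEF and 1.96 to 5.36 in the clones, with a median of 4.08. It was 2.09 and 2.96 in MPSVII ES and 3.03 in B6 Blu ES. All pluripotent arrays lay below both MEF arrays. The clones minus MEF gave -2.69 ± 0.46, a 6.44-fold lower signal (limma, adjusted p = 0.000809), and MPSVII ES minus MEF gave -4.13 ± 0.58 (adjusted p = 0.000338), a comparison that uses the same MEF arrays. Both kept their calls whichever array was omitted.

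H1f2, a linker histone of the H1 family, was also higher in MEF. Its signal was 7.74 and 6.31 in MEF, 4.45 to 5.74 in the clones, 5.50 and 5.34 in MPSVII ES and 4.84 in B6 Blu ES. The groups did not overlap, but the MEF arrays differed by more than 1 log2 unit from each other. The clones minus MEF gave -1.97 ± 0.38 (limma, adjusted p = 0.00186) and MPSVII ES minus MEF -1.61 ± 0.48 (adjusted p = 0.0306). Without MEF array 1 these were -1.26 and -0.89, and neither was called. The second was also not called without either array of MPSVII ES, at -1.69 and -1.52.

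H1f5, another linker histone, moved the opposite way. Its signal was 5.09 and 5.14 in MEF, 5.78 to 6.45 in the clones, 6.20 and 6.67 in MPSVII ES and 6.51 in B6 Blu ES. MEF lay below every pluripotent array. The clones minus MEF gave 1.06 ± 0.16, a 2.09-fold higher signal (limma, adjusted p = 0.000309), and MPSVII ES minus MEF 1.32 ± 0.20 (adjusted p = 0.00053), both called whichever array was omitted. H2bc22 was higher in the clones by 0.78 ± 0.21 (limma, adjusted p = 0.0145), with 3.19 and 2.84 in MEF against 2.95 to 4.55 in the clones. Its groups overlapped through clone 2, and without MEF array 2 the difference was 0.61 and not called.

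**Figure D4:**
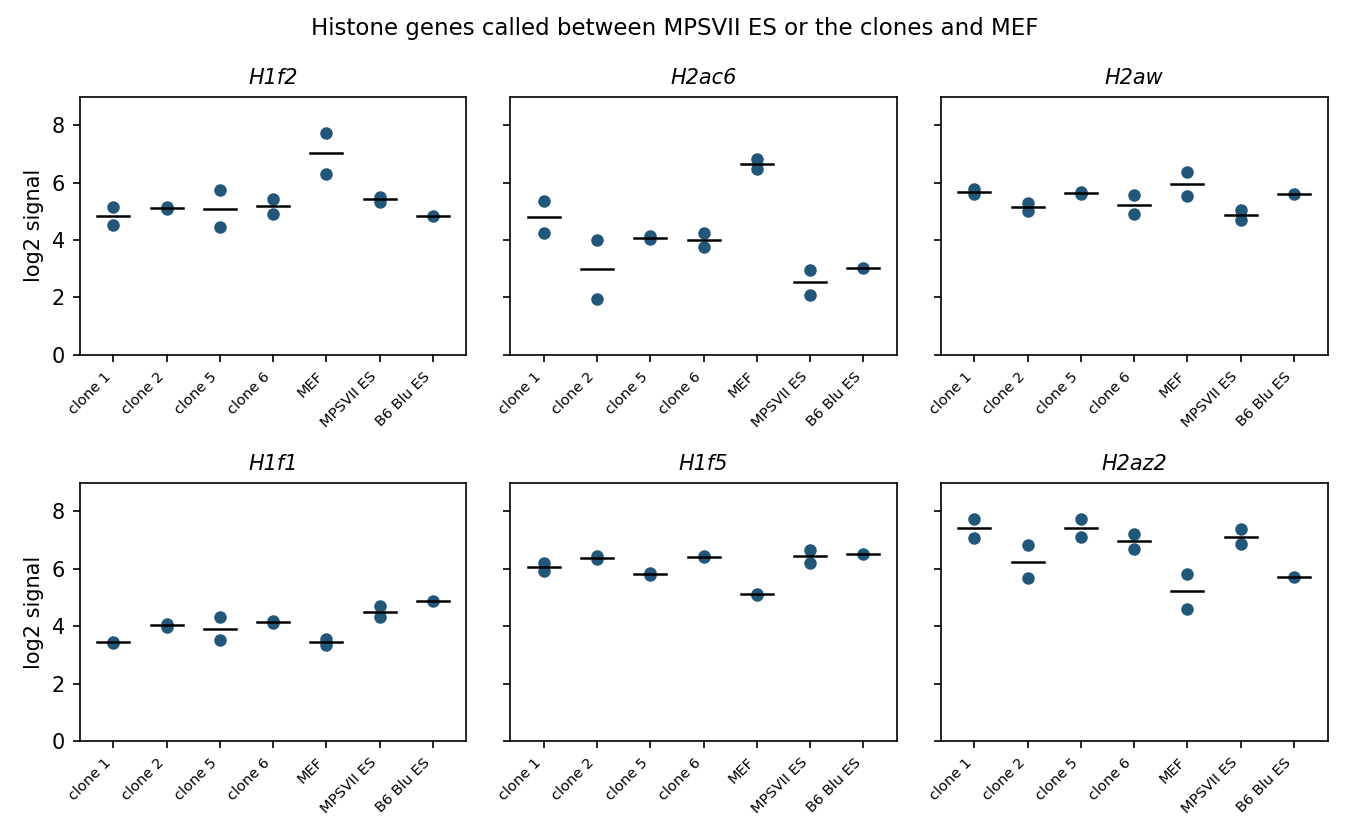
Log2 signal on each array (points) with the mean of each line (bars) for 6 histone genes called between MPSVII ES or the clones and MEF. H2ac6 and H1f2 are highest in MEF, and H1f5 and H2az2 are higher in most pluripotent arrays than in MEF.

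MPSVII ES minus MEF gave 7 called genes of 25, 4 higher and 3 lower, against 26.7% of all rows (6.7% higher and 20% lower), which is close to the share of all rows. Quantile normalization left 4 higher and 1 lower. The count fell to 3 without MEF array 1, to 3 without MPSVII ES array 1 and to 4 without MPSVII ES array 2. H1f1, a linker histone, was 3.34 and 3.56 in MEF, 4.70 and 4.31 in MPSVII ES, 4.87 in B6 Blu ES and 3.42 to 4.31 in the clones. It was higher in MPSVII ES by 1.05 ± 0.25 (limma, adjusted p = 0.00984), not called without MEF array 1 at 0.95 or without MPSVII ES array 1 at 0.86, whereas the clones overlapped MEF and differed from it by 0.43 without a call. After quantile normalization, median centring and cyclic loess the latter was 0.57, 0.70 and 0.58 and called. H2aw was 6.38 and 5.52 in MEF against 5.04 and 4.71 in MPSVII ES, a difference of -1.08 ± 0.30 (limma, adjusted p = 0.0223). It was not called without MEF array 1, at -0.65, without MPSVII ES array 2, at -0.91, or after quantile normalization, at -0.58.

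The 7 other replication-dependent histones, H1f1, H1f3, H2ac8, H2aw, H2bc18, H2bc21 and H4c14, were not called between the clones and MEF on the deposited values, with differences between -0.53 and 0.92. Other scalings called 3 of them higher in the clones: H1f1 under all 3, at 0.57 to 0.70, H4c14 after median centring and cyclic loess, at 1.18 and 1.02, and H2bc18 after quantile and cyclic loess normalization, at 0.58 and 0.53 against 0.11 as deposited. Several of them were dim: 8 of the 12 replication-dependent genes had a mean below 4.20, the median of the row means, against 0 of the 5 variants. H1f3 lay between 1.16 and 2.41 on all 13 arrays and H2ac8 between 1.03 and 3.23. For such genes a difference of abundance was hardly measurable on these arrays. When rows with a mean below that median were left out, 12 of the 25 genes of the set remained. Of these, 4 were called between the clones and MEF. H2bu2, H2bc22, H2ap and H2ac6, called there with all rows, were removed by this filter and not tested.

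Of the 5 variant histones, H2az2 was called. It encodes a form of H2A.Z, a variant placed at promoters and regulatory regions. Its signal was 5.83 and 4.59 in MEF, 7.37 and 6.87 in MPSVII ES and 5.70 in B6 Blu ES. In the clones it was 7.08 and 7.75, 6.82 and 5.69, 7.73 and 7.11, and 6.70 and 7.22, for clones 1, 2, 5 and 6 in turn. Clone 2 array 2 lay within the MEF values, as did B6 Blu ES, and the other clone arrays lay above them. The clones minus MEF gave 1.80 ± 0.37, a 3.48-fold higher signal (limma, adjusted p = 0.00288), and MPSVII ES minus MEF 1.91 ± 0.47 (adjusted p = 0.0113). Without MEF array 2 they were 1.18 and 1.29 and not called, nor was the second without MPSVII ES array 1, at 1.66.

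The other variants were not called on the deposited values in any comparison. H3f3a, one of the genes of H3.3, lay between 6.03 and 7.27 and differed by 0.32 between the clones and MEF, but by 0.99, with a call, after quantile normalization (limma, adjusted p = 0.0114). H2aj, an H2A.J gene, lay between 7.83 and 9.05 and differed by -0.18. H2ax, whose product is phosphorylated at DNA breaks, lay between 2.93 and 5.03 and differed by -0.48, and H1f10, a linker variant, lay between 4.66 and 5.56 and differed by -0.10. The strongest signal of a histone row was that of the row shared by H3f3b and H3f3a, at 10.87 to 12.27 on all arrays, although levels of different rows are not comparable as abundances.

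Among the 7 germ cell histones, H2al2a and H2ap were called between the clones and MEF, and they are named after their values were seen. H2al2a, an H2A gene of spermatids, was 5.05 and 5.18 in MEF and 5.83 to 7.08 in the clones, without overlap, and its difference was 1.03 ± 0.21 (limma, adjusted p = 0.00251). H2ap was 3.45 and 3.49 in MEF and 3.59 to 4.52 in the clones, a difference of 0.59 ± 0.18 (limma, adjusted p = 0.0241) that was lost without either MEF array, at 0.57 and 0.61. The remaining 5, which include the oocyte linker histone H1f8 and the testis genes H1f6, H1f7, H2ac1 and H2bc1, were not called there. In MPSVII ES H2al2a was 5.81 and 6.08, higher than MEF by 0.83 ± 0.26 (limma, adjusted p = 0.0392), a call lost in 8 of 12 repeats that omitted an array, those without either array of clone 1, clone 6, MEF or MPSVII ES, with values from 0.70 to 0.96. The mean signal of 5 male germ cell markers was 3.86 to 5.19 in the clones and 3.56 to 3.74 in MEF. Of the 5 markers, 2 were called higher in the clones and 3 were not called. Prm1 was 3.86 to 4.20 in the clones and 4.14 and 4.01 in MEF. Clone 2 had the lowest marker means of the clones, 3.86 to 3.87, and H2al2a at 7.08 and 6.20. The part of these markers in the values of the germ cell histones was not tested.

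The 20 rows shared by several genes hold most members of the replication-dependent clusters, and their signal cannot be given to 1 copy. Between the clones and MEF 6 of the 20 were called, 2 higher and 4 lower, which is close to the 34.8% of all rows called there (7.78% higher and 27% lower). The row of H2bc4 and 10 other genes was 10.40 on both MEF arrays, 6.42 to 7.38 in the clones, 6.56 and 6.17 in MPSVII ES and 7.57 in B6 Blu ES. MEF stood far above all other arrays, and the clones minus MEF gave -3.54 ± 0.19 (limma, adjusted p = 1.72e-07). The row led by H2bc3 names 6 of these 11 genes and gave 0.62, not called, so these H2B rows disagree. Its mean was 3.27, below 4.20, the median of the row means. The row of H3c14 and 7 other H3 genes was 7.51 and 7.69 in MEF and 2.88 to 4.75 in the clones, a difference of -3.73 ± 0.39 (limma, adjusted p = 2.59e-05). The 2 further rows that name the same 8 H3 genes, led by H3c14 and H3c7, gave -0.21 and -0.30 and were not called, so the rows of this H3 group disagree. These 2 rows were dim, with means of 3.14 and 2.095, below 4.20, the median of the row means. A difference was hardly measurable there. The row led by H2ac18 names the same 8 H3 genes among its 10, had a mean of 6.18 and gave -0.46, not called. The rows led by H4c9 and H2bc6 were lower in the clones by smaller amounts, with differences of -1.77 and -1.33. The same 4 rows were called lower under quantile normalization, median centring and cyclic loess.

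The row led by H4c4, which stands for 13 H4 genes, ran the other way. It was 7.35 and 7.88 in MEF and 8.81 to 9.51 in the clones, higher by 1.58 ± 0.23 (limma, adjusted p = 0.000292), although the row led by H4c9 names the same 13 genes and was lower in the clones. The rows led by H4c8 and H4f16 name these 13 genes as well and gave 0.03 and -0.27, not called, so the 4 rows disagree about the same group of copies. Of these, the row led by H4f16 was dim, with a mean of 2.63. The row led by H2ac11, with 9 H2A genes, was higher in the clones by 1.51 ± 0.43 (limma, adjusted p = 0.0189), a call lost without either MEF array, at 1.33 and 1.68. The row led by H2ac4 names the same 9 genes and gave -0.14, not called, and the single-gene row of H2ac6, one of the 9, gave -2.69. The rows led by H2ac11 and H2ac4 were both dim, with means of 3.14 and 2.14. In MPSVII ES minus MEF, which shares the MEF arrays, 5 of the 20 rows were called, against 26.7% of all rows. The row led by H4c4 was higher, at 1.94. Lower were the rows led by H2bc4, H4c9 and H2bc6 and the row led by H3c14 with a mean of 4.49. The row led by H2ac11 gave 0.11 there, not called. On the B6 Blu ES array the row led by H4c9 was 6.20, against 6.60 and 6.41 in MEF. Beside these values stand the macrophage and fibroblast markers of MEF, whose part in the differences was not tested.

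**Figure D5:**
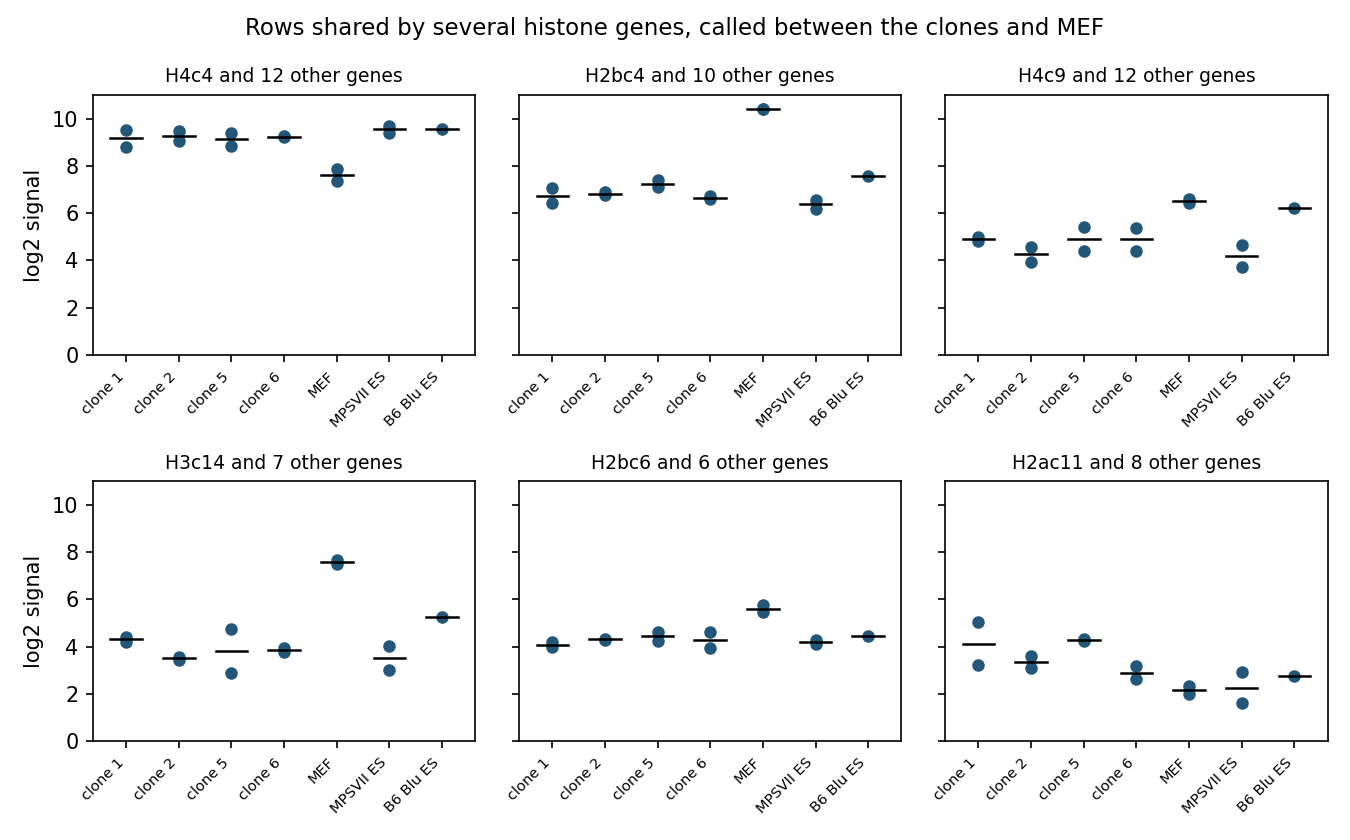
Log2 signal on each array (points) with the mean of each line (bars) for the 6 rows shared by several histone genes that were called between the clones and MEF. The rows led by H2bc4 and H3c14 are highest in MEF, at 10.40 and at 7.51 and 7.69, and the row led by H4c4 is lowest in MEF.

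Among the clones 1 shared row of the 20 was called, no more than the 9.01% of all rows. The row of H2bc3 and 5 other H2B genes was 5.23 and 4.68 in clone 5, 2.55 and 2.01 in clone 2, 3.41 and 3.68 in clone 1 and 2.69 and 3.29 in clone 6. Clone 5 was highest and clone 2 lowest without overlap. The means spanned 2.68 (limma moderated F test, adjusted p = 0.0138), with clone 5 higher than the other clones by 2.02 ± 0.34 (adjusted p = 0.0388) and clone 2 lower, at -1.55 ± 0.34 (adjusted p = 0.0149). The span was not called without clone 2 array 2 or clone 5 array 1, at 2.41 and 2.40, nor without clone 2, at 1.97. Without clone 2 array 2 the clone 2 difference was -1.28 and not called, and the clone 5 call was lost whichever clone array was omitted, at 1.74 to 2.30. H2bu2 was also high in clone 5, and it was high in clone 1 where this row was not.

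The partners of these genes were followed in 4 lists, chosen with earlier results of these data known. Their counts against MEF stand beside 7.78% of all rows higher in the clones and 27% lower. Of 13 measured genes for the processing of histone mRNA, 3 were higher in the clones than in MEF and 3 lower, the latter near the share of all rows. Higher were Casp8ap2, which encodes FLASH and helps recruit the cleavage complex, at 1.30 ± 0.19 (limma, adjusted p = 0.000228), Zfp473, the ZFP100 partner of the stem-loop complex, at 1.09 and the cleavage factor Cstf2 at 0.92. Lower were Lsm10, a subunit of the U7 snRNP that cuts histone pre-mRNA, at -1.67 ± 0.30 (limma, adjusted p = 0.00116), the cap-binding gene Ncbp2 at -0.91 and the scaffold gene Sympk at -0.52. Lsm11, the partner of Lsm10, was at -0.32 and Eri1, an exonuclease that trims the stem-loop, at 0.24, both not called. The number of lower genes was 1 under each of the 3 other scalings. Npat, the coactivator of histone gene transcription, was not matched to a row.

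Of 10 genes for histone gene transcription and its cyclin-dependent kinase, 4 were higher in the clones than in MEF and 0 lower: Ccne1, the cyclin E partner of CDK2, at 1.80 ± 0.23 (limma, adjusted p = 9.82e-05), Casp8ap2, Cdc25a at 0.99 and Cdk2 at 0.74. Without MEF array 2 the counts were 2 higher and 1 lower. Of 21 histone chaperones and carriers, 12 were higher and 1 lower. Nasp, a carrier of H3 and H4, was higher by 3.21 ± 0.14 (limma, adjusted p = 7.45e-08), Hat1, which acetylates new H4, by 2.69, Mms22l by 2.31 and Dek by 1.28. Without MEF array 2 the counts were 7 higher and 1 lower, without MEF array 1 they were 8 and 0, and the other scalings gave 16 to 19 higher and 0 lower. Of 19 S phase genes 15 were higher and 0 lower, with a median of 1.47 against -0.09 over all rows. Pola1 and Prim1, of the polymerase alpha and primase complex, led with 3.20 and 2.93, before Uhrf1 at 2.19 and Ccna2 at 2.10. The counts for MPSVII ES minus MEF, which shares the MEF arrays, were 3, 4, 10 and 15 higher for the 4 lists in the same order, and 0 lower in each. Without MPSVII ES array 2 the processing, chaperone and S phase counts were 1, 7 and 12. The processing count was also 1 without MEF array 1, and the transcription count was 2 without MEF array 2 or MPSVII ES array 1.

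Genes of these lists were also lower in clone 2 than in the other clones, in a comparison where 10.7% of all rows were lower and 0.87% higher. Of the 21 chaperones 8 were lower in clone 2 and 0 higher, with Mms22l at -1.42 ± 0.17 (limma, adjusted p = 0.00109), Nap1l4 at -1.22, Supt16 at -0.95 and Nasp at -0.81. Of the 19 S phase genes 6 were lower, with Rrm1, a subunit of ribonucleotide reductase, at -1.22 and the replicative helicase genes Mcm4 and Mcm7 at -1.19 and -1.10, beside Uhrf1 at -1.06. Ccne1, at -1.36, and Casp8ap2, at -0.87, were lower as well, the latter as the single called gene of the processing list. These counts rested on few arrays and on the scale. Without clone 2 array 2 they were 2 chaperones and 0 S phase genes, after quantile normalization 3 and 2, and after cyclic loess 3 and 1. The S phase count was 3 without clone 1 array 2 or clone 5 array 1, and 10 without clone 6 array 1 or after median centring. Over all rows the lower calls moved in the same directions under each of these changes. As deposited they numbered 1778, after quantile normalization 910, after cyclic loess 552 and after median centring 2019. None of the 4 lists had a called gene in the clones minus MPSVII ES or in MPSVII ES minus B6 Blu ES by limma. In each list 1 to 3 genes had an unadjusted p under 0.05, and the share of all rows at that threshold was not counted. In clone 2, low Slbp stood beside lower values of these genes, a lower mean of pluripotency markers and a narrower spread of the arrays. The 7 fibroblast markers averaged 5.21 to 5.86 in clone 2 and 4.62 to 5.35 in the other clones, with 2 called higher, Postn at 1.53 and Acta2 at 1.18, and 0 lower. The part of each of these in the values of clone 2 was not tested.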

How the data were processed

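Per the submitters' processing notes, the authors made the deposited log2 signal from Affymetrix Mouse Exon 1.0 ST scans with Affymetrix Expression Console and RMA (background correction, normalization between arrays, median polish). Versions are not given in the sources used here. The table has 23238 rows, and 6577 rows that precede the annotated ones and carry no gene were left out as controls.

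Groups were taken from the labels. The model, with 1 mean for each line and 13 arrays, was fitted with limma 3.58.1 in R 4.3.3 (lmFit, eBayes without trend, 6 residual degrees of freedom), with Benjamini-Hochberg adjustment over the 16661 rows of each of 9 comparisons. No array counts reads, so the number of arrays limits precision. The test was tried on simulated data.

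The members, classes and lists were chosen with earlier results of these data known. Named are Slbp, H2bu2, all variants, the called replication-dependent histones, up to 4 called genes per list and comparison, and 6 core processing factors. Promoters are RefSeq's (GRCm38.p6). Same-numbered arrays of different lines did not deviate together (15 pairs of lines, correlations -0.241 to 0.24, 4 over 0.1), so the numbers were not used as pairs. Alternatives were other scalings, array weights, filters, a replicate block, fewer lines and each array left out. Scanner files and probe-level values were not used here.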

Additional observations from a re-analysis of the deposited data

Results flagged for a closer look

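The difference between a clone and MPSVII ES was not the same for the 4 clones at Slbp and at H2bu2, by limma's moderated F test. For Slbp the clones spanned 4.34 log2 units (limma, adjusted p = 0.00454), with clone 2 below the other 3. For H2bu2 the span was 3.16 (limma, adjusted p = 0.0138), with clones 1 and 5 above clones 2 and 6.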

How the results depend on the processing

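Each line has at most 2 arrays, many of the genes lie low on the arrays, and near-identical copies share probes, so single calls near the threshold are fragile. Slbp in clone 2 minus the other clones was called under all 11 alternatives that could be run for it, between -4.25 and -3.63. The number of the 25 genes called moved as follows. In the clones minus MEF it was 4 with dim rows left out, a filter that kept 12 of the 25 genes. In the clones minus MPSVII ES it was 1 with array weights and 2 without clone 2. In clone 2 minus the other clones it was 1 with array weights and 2 with all rows of the table. In clone 5 it was 1 after quantile and 1 after cyclic loess normalization, in clone 6 it was 1 without clone 2, and among the clones 0 without clone 2. Leaving out 1 array gave 5 to 9 for the clones minus MEF, 0 to 1 for the clones minus MPSVII ES, 3 to 8 for MPSVII ES minus MEF, 0 to 0 for MPSVII ES minus B6 Blu ES, 0 to 1 for clone 1, 2 to 4 for clone 2, 0 to 1 for clone 5, 0 to 1 for clone 6 and 2 to 4 among the clones. With the replicate number as a block the counts were 9 in the clones minus MEF, 3 in clone 2, 7 in MPSVII ES minus MEF and 2 among the clones. Directions that turned were all of values not called. Slbp in the clones minus MEF was 0.12 after quantile and 0.018 after cyclic loess normalization, and 0.64 without clone 2. Slbp in the clones minus MPSVII ES was 0.31 and in clone 6 -0.21 without clone 2. Slbp in MPSVII ES minus B6 Blu ES was -0.26 after quantile and -0.28 after cyclic loess normalization, -0.091 with the replicate block and -0.34 to 0.41 with 1 array left out. Slbp in MPSVII ES minus MEF ranged from -0.042 to 0.70 with 1 array left out. H2bu2 in MPSVII ES minus MEF was 0.13 after median centring, 0.018 after cyclic loess, and -0.85 to 0.68 with 1 array left out. Taking the row of lowest mean gave no other value, because each gene has 1 row. The cause of these movements was not tested, apart from the smaller number of arrays or rows that an alternative leaves.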
